A study of Rattus norvegicus with 6 samples.

Results

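A set of 10 genes of the endoplasmic reticulum stress response, Hspa5, Hsp90b1, Calr, Pdia4, Dnajb9, Herpud1, Xbp1, Atf4, Ddit3 and Trib3, was followed in the ovaries of overfed and lean rats. They were measured by every probe set that the platform annotation assigns to 1 of these genes and to no other, which gave 12 probe sets for 10 genes, of 31042 probe sets tested and 14217 named genes. Trib3 had 3 probe sets and each other gene had 1. The 6 Affymetrix arrays carried RNA of ovary tissue from female rats, 3 overfed pools and 3 lean pools. Before mating, the animals received liquid diets through total enteral nutrition over 28 days. The overfed group was given 220 kcal and the lean group 155 kcal, both scaled to metabolic body weight in kg. All were then mated with lean males, and their ovaries were taken at 4.5 days post coitum. How many animals made a pool is not given here, nor their strain or age, so each p-value measures the spread between pools, and the number of arrays limits the precision.

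Secreted and membrane proteins fold in the lumen of the endoplasmic reticulum, and the unfolded protein response adjusts folding capacity to load through the sensors Atf6, Ern1 (IRE1) and Eif2ak3 (PERK). Atf6 and the spliced form of Xbp1 switch on lumenal chaperones and genes of ER-associated degradation, whereas PERK phosphorylates the initiation factor eIF2alpha, which favours translation of Atf4 and, downstream, transcription of Ddit3 (CHOP) and Trib3. Atf4 protein and the splicing of Xbp1 are set after transcription, so an array that measures total messenger RNA shows only part of either step. Steroid-secreting luteal cells and granulosa cells are rich in endoplasmic reticulum, and the response is part of their normal function.

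Several of these genes hold letters in common in their promoters. RefSeq promoter windows (GRCr8, 250 bases before to 50 bases after the gene start) were found for 10 of the 10 genes and searched on both strands. The ER stress response element ERSE consists of CCAAT, 9 bases of any kind and CCACG, and is bound by NF-Y and by Atf6 or Xbp1. Its exact letters occurred in 22 of 33469 windows (0.066%), and 4 of those were the windows of Hspa5, Hsp90b1, Calr and Xbp1. The related ERSE-II, which is ATTGG, 1 base of any kind and CCACG, occurred in 17 windows (0.051%), of which Herpud1 was 1. The core of the unfolded protein response element, TGACGTG, stood in 1.808% of windows and among the 10 genes in that of Hspa5 alone. The core of the C/EBP-ATF element, TTGCATCA, stood in 0.795% of windows and among the 10 genes in that of Herpud1 alone. A match is a description of the letters and not a site shown to be bound, and no match overlapped another in the windows of the 10 genes. None of the 4 motifs matched in the windows of Pdia4, Dnajb9, Atf4, Ddit3 and Trib3, which says only that these letters are not in these windows. The 4 chaperone promoters are shown because they let the matches be set beside the values below, with the fixed letters of each match in capitals. They lie at chr3:38452766-38453065 on the plus strand (Hspa5), chr7:23012244-23012543 on the minus strand (Hsp90b1), chr19:40213117-40213416 on the plus strand (Calr) and chr4:78153142-78153441 on the minus strand (Pdia4).
Hspa5: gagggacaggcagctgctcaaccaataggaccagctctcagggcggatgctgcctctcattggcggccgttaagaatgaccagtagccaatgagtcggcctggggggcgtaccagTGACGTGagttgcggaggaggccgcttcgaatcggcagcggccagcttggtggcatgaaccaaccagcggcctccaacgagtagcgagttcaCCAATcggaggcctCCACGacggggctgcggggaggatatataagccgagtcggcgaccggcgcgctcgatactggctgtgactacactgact
Hsp90b1: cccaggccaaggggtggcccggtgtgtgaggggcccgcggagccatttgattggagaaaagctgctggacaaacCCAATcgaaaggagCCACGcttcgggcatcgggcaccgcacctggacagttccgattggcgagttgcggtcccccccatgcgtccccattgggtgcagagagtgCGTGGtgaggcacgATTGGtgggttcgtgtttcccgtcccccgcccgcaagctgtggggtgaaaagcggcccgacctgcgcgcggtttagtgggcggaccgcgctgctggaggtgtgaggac
Calr: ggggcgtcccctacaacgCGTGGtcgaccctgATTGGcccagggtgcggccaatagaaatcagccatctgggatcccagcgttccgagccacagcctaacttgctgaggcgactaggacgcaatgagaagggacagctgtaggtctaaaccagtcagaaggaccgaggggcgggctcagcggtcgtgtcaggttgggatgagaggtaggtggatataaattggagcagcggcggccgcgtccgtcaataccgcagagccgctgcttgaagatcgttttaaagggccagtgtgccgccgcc
Pdia4: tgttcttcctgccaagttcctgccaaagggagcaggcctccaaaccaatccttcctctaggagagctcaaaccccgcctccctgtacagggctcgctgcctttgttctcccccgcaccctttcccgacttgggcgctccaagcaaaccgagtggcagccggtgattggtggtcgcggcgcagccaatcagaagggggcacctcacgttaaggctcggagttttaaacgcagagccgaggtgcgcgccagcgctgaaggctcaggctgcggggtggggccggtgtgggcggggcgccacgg
In Hspa5 the capitals mark TGACGTG and the ERSE, which begins 43 bases before the start, in Hsp90b1 an ERSE on each strand, and in Calr an ERSE on the opposite strand. The ERSE of Xbp1 (window at chr14:84604373-84604672, plus strand) and the ERSE-II of Herpud1 (window at chr19:10614658-10614957, minus strand) are given alone, to show the shared CCACG.
Xbp1: CCAATcgcagacggCCACG
Herpud1: ATTGGgCCACG

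All values below are on the log2 scale and centred, so that a probe set's median across the arrays is 0. Differences between pools are therefore known, but levels are not, and no level of one gene can be set against that of another, nor can the presence of ovarian markers be checked. Where the 2 groups do not overlap, 0 lies midway between the nearest pools of each. Array medians were -0.0094 to 0.0099. Lean pool 3 stood apart in the mean of 9 hybridization control probe sets (0.496, against -0.246 to 0.060 in the other pools), and overfed pool 1 had the largest SD over probe sets (0.289, against 0.142 to 0.242). The 9 measured markers of oviduct and ciliated epithelium, of 14 listed, had pool means of -0.684 to -0.256 in overfed pools and -0.068 to 0.65 in lean pools. All 9 were below 0 overfed minus lean, with the ciliated cell genes Foxj1 at -1.06 (SE 0.21) and Rsph1 at -1.69 (SE 0.41). The list was uneven. Msx2 was at -0.001, and Epcam at -0.47 and Krt7 at -0.46 overlapped between the groups. These last 2 stood at 0.535 and 0.317 in overfed pool 1. The part of RNA from oviduct and ciliated epithelium in the results below was not tested. In bulk tissue fewer cells of a type and less RNA per cell cannot be told apart.

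No endoplasmic reticulum stress gene passed the test between overfed and lean ovaries. Of the 12 probe sets, 0 had an adjusted p under 0.05 in limma with Benjamini-Hochberg adjustment over all 31042 probe sets, where 0.0% of all probe sets passed, and 0 had an unadjusted p under 0.05, where 6.67% of all probe sets did (3.31% higher and 3.36% lower in overfed ovaries). The differences were small. They ran from 0.88-fold (Calr) to 1.16-fold (Ddit3), and their 95% intervals together spanned 0.66-fold to 1.36-fold. In 4 probe sets, those of Hspa5, Pdia4, Atf4 and Ddit3, every overfed pool lay above every lean pool (33.3% of the 12, against 7.35% of all probe sets), and in 0 did every overfed pool lie below every lean pool (5.33% of all probe sets). Of the 12 differences 7 were above 0 (54.6% of all probe sets were), and their median was 0.03, against 0.02 over all probe sets.

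**Figure D1:**
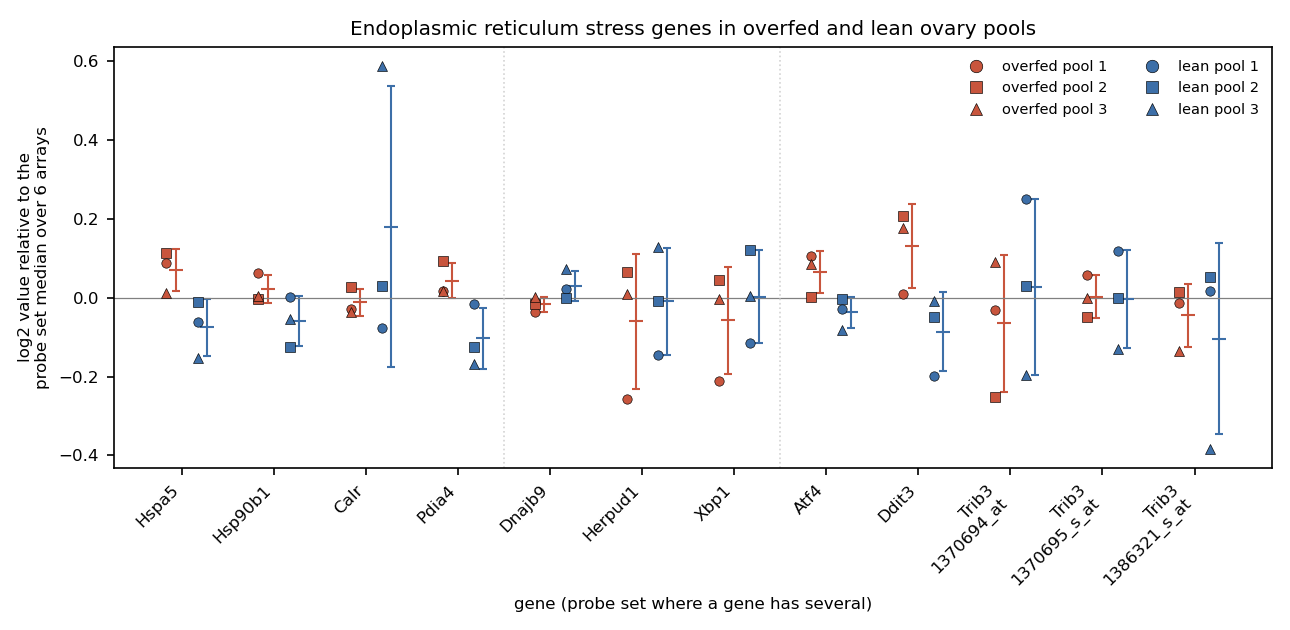
Log2 value relative to the probe set's median over 6 arrays (y axis) for the 12 probe sets of the 10 genes (x axis), overfed pools in red and lean pools in blue, with each group's mean ± SD beside its points. The groups do not overlap for Hspa5, Pdia4, Atf4 and Ddit3, and lean pool 3 stands alone at 0.588 for Calr.

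Among the lumenal chaperones, Hspa5 and Pdia4 were separated between the groups by small amounts, and Hsp90b1 and Calr were not. Hspa5 encodes BiP, the Hsp70 chaperone of the ER lumen that also holds the sensors inactive. Its relative values were 0.089, 0.114 and 0.011 in overfed pools 1 to 3, against -0.062, -0.011 and -0.152 in lean pools 1 to 3. The groups did not overlap, but the nearest pools, overfed 3 and lean 2, lay only 0.011 on either side of 0. The difference was 0.15 (SE 0.08, 95% interval -0.05 to 0.34), or 1.11-fold, with a limma adjusted p of 0.829. By the exact two-sided permutation test p was 0.1, and 3 against 3 pools allow no smaller value.

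Pdia4 encodes a protein disulfide isomerase of the ER lumen. It stood at 0.016, 0.093 and 0.018 in overfed pools and at -0.016, -0.126 and -0.167 in lean pools. Again every overfed pool was above every lean pool, with overfed 1 and lean 1 closest, and the difference of 0.15 (SE 0.08, limma adjusted p = 0.829) was as large as that of Hspa5. The promoter window of Pdia4 held no exact ERSE, whereas that of Hspa5 did.

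Hsp90b1 encodes Grp94, the Hsp90 chaperone of the ER. It had 0.064, -0.002 and 0.005 in overfed pools, against 0.002, -0.124 and -0.055 in lean pools. The groups overlapped only in that lean pool 1 lay just above overfed pool 2. Its difference was 0.08 (SE 0.08, limma adjusted p = 0.892), with 2 ERSE matches in its window.

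Calr encodes calreticulin, the lectin chaperone that binds calcium and monoglucosylated glycoproteins. Its values were -0.028, 0.028 and -0.036 in overfed pools and -0.078, 0.031 and 0.588 in lean pools. The overfed pools and lean pools 1 and 2 lay together, and lean pool 3 alone was high, by 0.557 above the next pool. Lean pool 3 lay above all other pools by that much or more in 192 of 31042 probe sets (0.619%). The difference of -0.19 (SE 0.17, limma adjusted p = 0.884) rested on that pool and was 0.01 without it. The same pool carried the highest hybridization controls, and their part in the value was not tested.

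The co-chaperone, degradation and transcription factor genes that Atf6 and Xbp1 control were not separated between the groups. Dnajb9 encodes ERdj4, a DnaJ partner of BiP that in mouse cells is a target of spliced Xbp1. It varied least of the 10 genes, with -0.035, -0.016 and 0.001 in overfed pools, against 0.021, -0.001 and 0.073 in lean pools. Its range over the 6 pools was 0.108, and only 1.5% of probe sets had a smaller one. Its difference was -0.05 (SE 0.07, limma adjusted p = 0.940). The groups overlapped because overfed pool 3 lay just above lean pool 2.

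Herpud1 encodes an ER membrane protein of the degradation machinery. It had -0.256, 0.066 and 0.009 in overfed pools and -0.145, -0.009 and 0.128 in lean pools. Pool 1 was the lowest of each group and the groups overlapped throughout. Its difference was -0.05 (SE 0.12, limma adjusted p = 0.963), and leaving out overfed pool 1 or lean pool 3 turned it to 0.05 or 0.02.

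Xbp1, the transcription factor whose messenger RNA is spliced by Ern1, had -0.211, 0.044 and -0.004 in overfed pools and -0.115, 0.121 and 0.004 in lean pools. Overfed pool 1 was again the lowest of all pools and lean pool 1 the next, as for Herpud1. The difference was -0.06 (SE 0.11, limma adjusted p = 0.949), and 0.02 without overfed pool 1. In the same overfed pool 1 the mean of 10 corpus luteum markers was -0.513, with Star at -0.458 and Cyp11a1 at -0.312, but Hsd3b1 at -0.095 and Akr1c3 at -0.009. The luteal mean was 0.129 and -0.016 in overfed pools 2 and 3, and -0.211, 0.2 and -0.256 in lean pools 1 to 3. In lean pool 3, the next lowest, Herpud1 was at its highest, 0.128, and Xbp1 at 0.004. The part of luteal tissue in the values of Herpud1 and Xbp1 was not tested.

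In the Atf4-Ddit3 branch, Atf4 and Ddit3 did not overlap between the groups, while Trib3, which both factors are known to induce, showed no shared direction over its probe sets. Atf4, the basic leucine zipper factor translated when eIF2alpha is phosphorylated, stood at 0.105, 0.003 and 0.086 in overfed pools and at -0.028, -0.003 and -0.081 in lean pools. All overfed pools were above all lean pools, with pool 2 of each group almost level. The difference was 0.10 (SE 0.08, limma adjusted p = 0.860).

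Ddit3 encodes CHOP, a C/EBP family factor linked to cell death under lasting stress. It had the largest positive difference of the 12 probe sets. Its values were 0.009, 0.208 and 0.178 in overfed pools, against -0.198, -0.050 and -0.009 in lean pools. The groups did not overlap, overfed pool 1 and lean pool 3 being nearest to each other, and overfed pools 2 and 3 stood clear of the rest. The difference was 0.22 (SE 0.10, 95% interval -0.01 to 0.44), or 1.16-fold, above 92.1% of all probe sets. Its limma unadjusted p was 0.0570, its adjusted p 0.760, and the exact two-sided permutation test gave p = 0.1. Without overfed pool 1 the difference was 0.28 (limma unadjusted p = 0.0305, adjusted p = 0.747).

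Trib3 encodes a pseudokinase that binds Akt and Atf4. In probe set 1370694_at it had -0.030, -0.253 and 0.090 in overfed pools and 0.250, 0.030 and -0.196 in lean pools, so that the groups overlapped over nearly their whole range. The other probe sets were at 0.058, -0.050 and 0.000 (1370695_s_at) and at -0.014, 0.014 and -0.135 (1386321_s_at) in overfed pools. In lean pools they were at 0.119, 0.000 and -0.129 and at 0.018, 0.052 and -0.383. Lean pool 3 was the lowest lean pool in all 3 probe sets, but the overfed pools had no common order. The differences were -0.09, 0.01 and 0.06, with limma adjusted p-values of 0.939, 0.995 and 0.962.

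**Figure D2:**
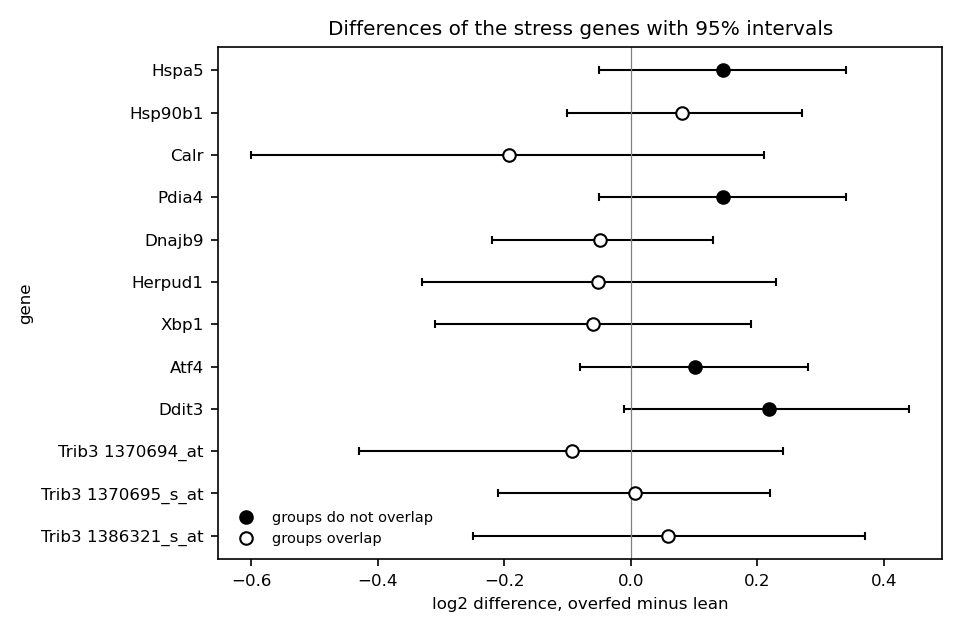
Log2 difference, overfed minus lean, with limma's 95% interval (x axis) for each of the 12 probe sets (y axis). Filled points mark the 4 probe sets whose groups do not overlap, and all 12 intervals include 0.

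The 10 genes form a chaperone set and an Atf4-Ddit3 set, which were set side by side as means per pool, with the probe sets of a gene averaged first and without a test. The means over Hspa5, Hsp90b1, Calr and Pdia4 were 0.035, 0.058 and -0.001 in overfed pools, against -0.039, -0.057 and 0.053 in lean pools. They overlapped through lean pool 3, the pool of the high Calr value. Without Calr the chaperone means were 0.056, 0.069 and 0.011 in overfed pools and -0.026, -0.087 and -0.125 in lean pools, which did not overlap. Calr was left out after its values were seen, and Hspa5 and Pdia4 do not overlap by themselves, so this separation is a description. The means over Atf4, Ddit3 and Trib3 were 0.040, 0.038 and 0.083 in overfed pools and -0.032, -0.008 and -0.109 in lean pools, also without overlap. Atf4 and Ddit3 do not overlap by themselves either, so this separation too is a description, and Trib3 shows no shared direction. Overfed minus lean, the chaperone set differed by 0.05 (0.12 without Calr) and the Atf4-Ddit3 set by 0.10. The chaperone mean minus the Atf4-Ddit3 mean was -0.004, 0.020 and -0.083 in overfed pools and -0.006, -0.049 and 0.162 in lean pools. The pools of the 2 diets overlapped in this contrast. The means of Dnajb9, Herpud1 and Xbp1 were -0.167, 0.031 and 0.002 in overfed pools and -0.080, 0.037 and 0.068 in lean pools, where overfed pool 1 and lean pool 1 were the lowest.

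**Figure D3:**
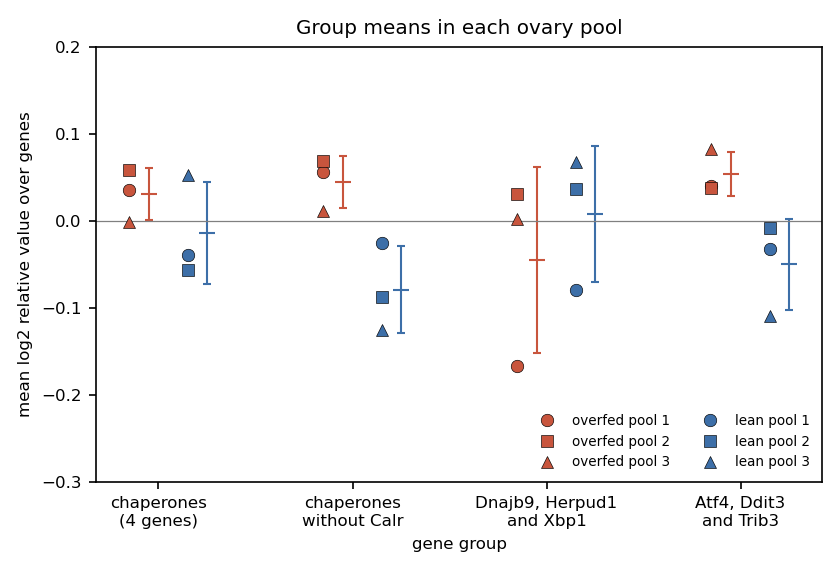
Mean log2 relative value over the genes of a group (y axis) in each ovary pool, overfed in red and lean in blue, with mean ± SD of 3 pools. Overfed and lean pools do not overlap for the chaperones without Calr or for Atf4, Ddit3 and Trib3, and overlap for the 4 chaperones and for Dnajb9, Herpud1 and Xbp1. Both groups without overlap hold genes that do not overlap by themselves.

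Over the 6 pools, Hspa5 varied most like Pdia4 among the 10 genes (Pearson r = 0.83) and next like Atf4 (0.72), and it ran opposite to Dnajb9 (-0.94). Herpud1 and Xbp1 varied together (0.81). Among all 14216 other genes, Pdia4 ranked 417 in likeness to Hspa5 and Hsp90b1 ranked 2879. Genes whose symbols begin with LOC or RGD were left out of the next lists. Of the rest, the 5 most like Hspa5 were Vom1r93, Leprotl1, Wbp1l, Tpd52l2 and Ibtk (r of 0.983 to 0.991). Those most like Ddit3 were Zfp775, Them4, Tas2r123, Dusp9 and Vamp5 (r of 0.983 to 0.996). The 6 points share the 2 diets, and each array contributes to all genes at once, so these correlations are descriptions over 6 pools.

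The other genes of the pathway were taken from 5 lists of 94 genes, 86 of them measured, with 1 probe set per gene. The lumenal folding partners, 20 genes, had the highest median of the 5 lists, except without lean pool 2, where it was 0.10 against 0.11 for degradation and translocation. Of these, 16 differed by more than 0 and 4 by less, with a median of 0.11, against 0.01 over the 14217 genes, of which 52.2% were above 0. Their pool means were 0.047, 0.043 and 0.039 in overfed pools, against -0.038, -0.031 and -0.071 in lean pools. In 6 of the 20 every overfed pool lay above every lean pool, against 6.76% of all genes. They were Dnajb11, Manf, Dnajc3, Erp29, Pdia6 and Ppib. Of the 20, 0 had a limma adjusted p under 0.05, and 1 had an unadjusted p under 0.05, against 7.15% of all genes in either direction and 2.67% in this one.

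That gene was Dnajb11, the BiP co-chaperone ERdj3, with 0.112, 0.179 and 0.060 in overfed pools, against -0.177, -0.060 and -0.157 in lean pools. Its difference was 0.25 (SE 0.08, limma unadjusted p = 0.0179, adjusted p = 0.686). Leaving out overfed pool 2 gave an unadjusted p of 0.0637 in limma, and leaving out lean pool 1 gave 0.0578. Manf, a small ER protein secreted under stress, varied little within each diet, with 0.059, 0.075 and 0.068 in overfed pools and -0.059, -0.061 and -0.151 in lean pools. Its difference was 0.16 (SE 0.08, limma adjusted p = 0.792). Dnajc3 (p58IPK, an inhibitor of PERK) differed by 0.21 (SE 0.12) and Sdf2l1, a partner of ERdj3, by 0.18 (SE 0.10), each with a limma adjusted p of 0.829. The lowest of the 20 was Hyou1, an Hsp110-type chaperone, at -0.17. It was named after its values were seen. In lean pool 3 Hyou1 stood at 0.685, beside 0.588 for Calr.

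Degradation and translocation genes numbered 19, of which 15 were above 0 and 4 below, with a median of 0.06. The median was 0.0049 without lean pool 3 and 0.11 without lean pool 2. Groups did not overlap in 1 of them, Selenos (0.06), against 13.1% of all genes. In limma 1 had an unadjusted p under 0.05, against 7.15% of all genes. This was Ssr3, a subunit of the translocon-associated complex, with -0.040, 0.361 and 0.446 in overfed pools and 0.040, -0.281 and -0.513 in lean pools. Overfed pool 1 lay below lean pool 1, and the difference was 0.51 (SE 0.18, limma adjusted p = 0.703). The mean of all its probe sets differed by less, 0.21 (limma unadjusted p = 0.0305, adjusted p = 0.650). Its unadjusted p in limma was 0.0630 to 0.0864 when overfed pool 2 or 3 or lean pool 2 or 3 was left out. The signal peptide peptidase Hm13 was at 0.23 (SE 0.14), the retrotranslocation protein Derl1 at 0.12 (SE 0.09) and the lectin Os9 at -0.27 (SE 0.18), with lean pool 3 at 0.66 for Os9. Their limma adjusted p-values were 0.829, 0.860 and 0.842. As means of all their probe sets, Hm13 differed by 0.07, Derl1 by 0.06 and Os9 by -0.17. Without lean pool 3, Os9 was at -0.06 and Hm13 at 0.34 (limma unadjusted p = 0.0331, adjusted p = 0.946).

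The 12 sensors and signal transducers were even, 6 above and 6 below 0, with a median of -0.001. Groups did not overlap in 2 of them, both higher in overfed pools, against 6.76% of all genes. The same 2 had an unadjusted p under 0.05 in limma, against 7.15% of all genes in either direction and 2.67% in this one. Eif2s1, the alpha subunit of eIF2 that PERK phosphorylates, had 0.198, 0.011 and 0.144 in overfed pools, against -0.157, -0.011 and -0.138 in lean pools. Mbtps2, the protease that completes the release of Atf6, had 0.005, 0.120 and 0.187 in overfed pools and -0.153, -0.005 and -0.251 in lean pools. In both genes pools of the 2 diets met near 0, and the differences were 0.22 (SE 0.09) and 0.24 (SE 0.10), each with a limma adjusted p of 0.739. Leaving out 1 pool took the unadjusted p of Eif2s1 to 0.0966 to 0.124 (overfed pool 1 or 3, lean pool 1 or 3) and that of Mbtps2 to 0.1002 to 0.1249 (overfed pool 2 or 3, lean pool 1 or 3) in limma. Wfs1, an ER membrane protein, was at -0.27 (SE 0.17) and Creb3, a factor cleaved like Atf6, at 0.10 (SE 0.13), with limma adjusted p-values of 0.838 and 0.930.

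The 24 measured targets of Atf4 and Ddit3 lay near the background of all genes. Of these 11 were above 0 and 13 below, where 52.2% of all genes were above 0, and their median was -0.02. In limma 0 of them had an unadjusted p under 0.05, against 7.15% of all genes. Ppp1r15a (GADD34), the phosphatase subunit that Ddit3 and Atf4 induce to restore translation, had -0.012, -0.060 and -0.172 in overfed pools, against 0.012, 0.128 and 0.252 in lean pools. Every overfed pool lay below every lean pool, as in 6.34% of all genes, and the difference was -0.21 (SE 0.10, limma unadjusted p = 0.0619, adjusted p = 0.770). The amino acid transporter Slc7a5 was at 0.25 (SE 0.12), the transaminase Gpt2 at -0.24 (SE 0.12) and the C/EBP factor Cebpb at -0.27 (SE 0.14), with limma adjusted p-values of 0.790, 0.803 and 0.819. Aldh18a1, an enzyme of proline synthesis, was the 1 target whose overfed pools all lay above the lean pools (6.76% of all genes), at 0.23. The largest positive difference of the 24 was that of Cth, an enzyme of cysteine synthesis named after its values were seen, at 0.72 (SE 0.47, limma adjusted p = 0.842). It stood at 1.955 in overfed pool 1 and at -0.027 to 0.237 in the other pools.

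The last list held heat shock genes of the cytosol, which answer to Hsf1 and not to the ER sensors. It also held Hsf1 itself and the mitochondrial chaperonins Hspd1 and Hspe1. Of its 11 measured members, 6 were above 0. The median was 0.02, turned to -0.07 with quantile normalization and reached 0.095 in another alternative. Groups did not overlap in 0 of them (13.1% of all genes), and 0 had an unadjusted p under 0.05 in limma (7.15% of all genes). Dnaja1, an Hsp40 co-chaperone, differed by 0.36 (SE 0.24) and stood at 0.786 in overfed pool 1. Hsph1, an Hsp110, was at -0.14 (SE 0.10). The co-chaperone Bag3 was at 0.16 (SE 0.14) and Hsf1 itself at -0.14 (SE 0.14), and the limma adjusted p-values of the 4 were 0.846 to 0.901.

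**Figure D4:**
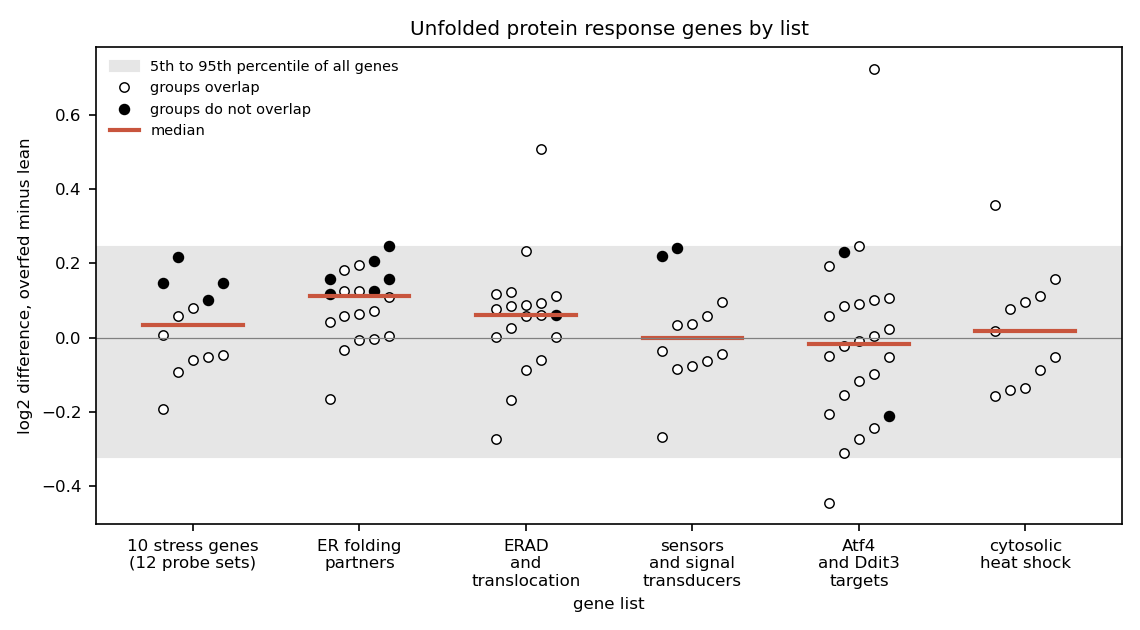
Log2 difference, overfed minus lean (y axis), for the 12 probe sets of the 10 genes and for the genes of 5 pathway lists (x axis), with list medians in red and the 5th to 95th percentile of all genes, -0.32 to 0.245, in grey. The medians lie between -0.02, for the targets of Atf4 and Ddit3, and 0.11, for the folding partners, and their order changes with the processing and with the pools included.

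The ERSE gives a grouping made from sequence alone. The 22 windows belong to 21 named genes, 17 of them measured, and 13 of those are none of the 10 genes. In those 13, which include the folding genes Canx, Creld2, Dnajc3 and Ero1b, the median difference was 0.07, with 8 above 0 and 5 below, and every overfed pool lay above every lean pool in 2, Dnajc3 and Hnrnpa3 (6.76% of all genes did). Of the 13, 0 had an unadjusted p under 0.05 in limma, against 7.15% of all genes. Among the 4 genes of the set of 10 that hold the ERSE, Hspa5 and Hsp90b1 were above 0 and Calr and Xbp1 below. The negative difference of Calr turned to 0.01 when lean pool 3 was dropped. That of Xbp1 turned to 0.02 when overfed pool 1 was dropped, and shrank to -0.0011 when lean pool 2 was. With lean pool 3 and overfed pool 1 both dropped, Hspa5 stood at 0.10, Hsp90b1 at 0.06, Calr at 0.02 and Xbp1 at 0.02. The limma unadjusted p was 0.856 for Calr and 0.888 for Xbp1 in that fit. These pools were picked after the values were seen, and they are the ones whose removal turns Calr and Xbp1. The shared sign of the 4 genes therefore follows from the choice and cannot bear on the ERSE.

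Markers of other cells that make much secretory protein gave values beside these. Of 7 measured plasma cell markers, 3 were above 0 and 4 below, with pool means of -0.023 to 0.008 in overfed pools and 0.018 to 0.152 in lean pools. The 2 lowest were Jchain at -0.47 and the plasma cell chaperone cofactor Mzb1 at -0.40 (limma unadjusted p = 0.0246, adjusted p = 0.703). Mzb1 was the 1 marker of the 7 with an unadjusted p under 0.05, against 7.15% of all genes. The 3 above 0 were Prdm1 at 0.34, with 1.327 in overfed pool 1, Cd79b at 0.12 and Tnfrsf17 at 0.06. Of 9 granulosa markers 7 were above 0, with pool means of -0.173 to 0.195 in overfed pools and -0.175 to -0.048 in lean pools, Amh at 0.33 and Inha at 0.11. In 1 of the 9, Inhba at 0.64 with overlap, the limma unadjusted p was under 0.05 (0.0162, adjusted p = 0.676), against 2.67% of all genes in this direction. The 2 below 0 were Nr5a2 at -0.33 and Foxl2 at -0.04. Of 9 macrophage markers 7 were above 0, with pool means of 0.051 to 0.179 in overfed pools and -0.124 to -0.02 in lean pools, Cd68 at 0.03 and Adgre1 at 0.21. In 4 of the 9, Csf1r, Mrc1, C1qa and C1qb, every overfed pool lay above every lean pool (6.76% of all genes), and 3 had an unadjusted p under 0.05 in that direction (2.67% of all genes). These were Mrc1 at 0.40 (limma unadjusted p = 0.00423, adjusted p = 0.623), C1qa at 0.25 and Csf1r at 0.24, and Cd163 was at 0.61 with overlap. The 2 markers below 0 were Aif1 at -0.223 and Cd14 at -0.065, both with overlap. The macrophage means separated the groups as Hspa5 and Pdia4 did, and their part in those values was not tested.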

How the data were processed

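Total RNA from ovary was extracted with TRI reagent and RNeasy columns with DNase treatment, and biotin-labelled with an Affymetrix kit, per the labels' protocols. The submitters' processing notes name GCOS. How probe sets were summarised and arrays normalised, and the base of the logarithm, are not stated here. The deposited values were taken as log2 and are centred: all 31099 probe sets had a median of 0 over the 6 arrays, to a tolerance of 1e-06. If the logarithm is natural, every fold given is too close to 1. Gene names came from the platform annotation, with symbols updated through a RefSeq table (GRCr8) that held 20758 of 20826 identifiers. After 57 control probe sets were left out, 31042 were tested, of which 436 had several genes and 9780 were unnamed here.

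Overfed minus lean differences were fitted with limma 3.58.1 (R 4.3.3, lmFit and eBayes, no covariate, two-sided, Benjamini-Hochberg over all probe sets, threshold 0.05), tested on simulated data, with an exact two-sided permutation test of each probe set beside it. A gene's representative probe set was chosen by RefSeq mRNA accession, then unique type, then lowest identifier. The members, lists and alternatives were chosen with earlier results of these data known. Named were all probe sets of the 10 genes, the 4 genes of lowest p per pathway list and the first 2 measured markers per list. Named too were the 5 genes most like Hspa5 and Ddit3, without symbols that begin with LOC or RGD. Other genes named were chosen after their values were seen. Alternatives were quantile normalization, array median centring, a robust prior, array weights, a replicate block, a filter on SD, gene means and leaving out each pool. Leaving out lean pool 3 and overfed pool 1 together was chosen after seeing the data. Figures were drawn with matplotlib 3.10.9 (Python 3.11.15).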

Additional observations from a re-analysis of the deposited data

How the results depend on the processing

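Of the 12 probe sets, 6 kept their direction under every alternative run, those of Hspa5 (0.108 to 0.179 with any 1 pool left out), Hsp90b1 (0.049 to 0.112), Pdia4 (0.114 to 0.189), Dnajb9 (-0.064 to -0.026), Atf4 (0.08 to 0.132) and Ddit3 (0.161 to 0.279). The other 6 turned. With 1 pool left out the ranges were -0.322 to 0.011 for Calr, -0.12 to 0.046 for Herpud1, -0.119 to 0.017 for Xbp1, and -0.204 to 0.018, -0.057 to 0.067 and -0.08 to 0.137 for Trib3 1370694_at, 1370695_s_at and 1386321_s_at. Among the pathway genes named by rule, 1 turned, Creb3 (-0.0091 to 0.191). Without lean pool 3 and overfed pool 1 together, Calr was at 0.019, Herpud1 at 0.114, Xbp1 at 0.018, and Trib3 1370695_s_at and 1386321_s_at at -0.085 and -0.096. With array weights Herpud1 was at 0.029 and Trib3 1370695_s_at at -0.043, and this Trib3 probe set was at -0.025 with quantile normalization and -0.002 with array medians subtracted. The cause of each turn was not tested.

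The count of the 12 at an unadjusted p under 0.05 was 1, Ddit3, with quantile normalization, with array weights and without both of those pools, and 0 to 1 with any 1 pool left out (1 without overfed pool 1). The unadjusted p of Ddit3 ran from 0.0201 with array weights to 0.231 with the filter on SD. Adjusted p-values of the 12 lay between 0.6149 and 0.9998 over all alternatives. A filter that kept only the 50% of probe sets with the larger SD removed 8 of the 12. Under it limma called 62 probe sets at an adjusted p under 0.05 and 944 at an unadjusted p, with 0 of the remaining 4 among them. With any 1 pool left out the unadjusted count was 1512 to 2266. Among the 86 pathway genes, 4 had an unadjusted p under 0.05 in limma, against 7.15% of all genes. The count was 2 with the replicate block, 1 with that filter and 1 to 8 with any 1 pool left out (8 without lean pool 2, 1 without overfed pool 2 or 3). The median difference of the 86 genes, 0.057, was 0.025 to 0.064. The median of the folding partners was 0.091 to 0.117 with any 1 pool left out and 0.081 without both. That of degradation and translocation was 0.0049 to 0.113 with 1 pool left out, the upper end above the folding partners in that fit (0.099). The median of the sensors was -0.062 with the filter on SD, 0.015 with array weights, 0.04 without both pools and -0.027 to 0.043 with 1 pool left out. That of the heat shock list was -0.068 with quantile normalization, -0.048 with array weights, -0.057 without both pools and -0.05 to 0.021 with 1 pool left out. Its highest value over all alternatives was 0.095. The difference of the chaperone set was 0.106 as a median over genes and 0.024 to 0.079 with 1 pool left out. That of the chaperone minus the Atf4-Ddit3 set, -0.058, turned to 0.037 as a median over genes and was -0.1 to 0.0051 with 1 pool left out.

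The pool numbers are not stated to pair the pools, so they were not taken as a pairing. Deviations from the group mean correlated at 0.097, 0.17 and -0.284 over probe sets between pools of the same number. Between pools of different number the correlations ran from -0.417 (overfed pool 1 with lean pool 2) to 0.396 (overfed pool 3 with lean pool 2). With the pool number as a replicate block, 4 pathway genes changed sides of the unadjusted threshold in limma. Ssr3, Eif2s1 and Mbtps2 no longer passed, at 0.0620, 0.0936 and 0.0724, and Hm13 did, at 0.0457. Of all probe sets 1757 passed, against 2070 without the block, and 0 of the 12, with 0 adjusted calls in either fit.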
